A study of Mus musculus with 2 samples.

Results

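Fli1, Erg, Etv6, Ets1 and Elf1 are 5 genes for transcription factors of the ETS family, and they were taken by their symbols from the 31053 genes of the deposited count matrices. All 5 had UMIs (unique molecular identifiers, 1 per captured RNA molecule) in both libraries. They were followed in single-cell RNA-seq of mouse bone marrow cells sorted as LSK CD150+, that is, by the absence of lineage antigens and the presence of Sca-1, Kit and CD150 (a SLAM receptor). The mouse model joins a floxed Runx1 allele (Runx1F/F) with Mx1-Cre, in which the interferon-inducible Mx1 promoter drives the recombinase, also outside blood cells. There was 1 library labelled RUNX1 KO and 1 labelled RUNX1 WT. The sources used here do not say how many animals were pooled into a library, how old they were, whether an inducer of Cre was injected, or which of the alleles the WT mice carried.

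ETS factors share a winged-helix domain that recognises a GGAA core in DNA, and many of them act in groups with other blood transcription factors. In stem and progenitor cells FLI1 and ERG bind the same enhancers as RUNX1, GATA2, TAL1, LYL1 and LMO2. FLI1 drives megakaryocyte genes and opposes red cell fate, ERG maintains haematopoietic stem cells, and ETV6 is a repressor needed for adult stem cell survival and for normal platelet numbers. ETS1 is best known from lymphoid cells, and ELF1 is a broadly expressed activator that binds promoters of blood genes.

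Each genotype has 1 library, so differences between the libraries cannot be set against replicates and were not tested. The intervals below are exact 95% intervals that cover counting error only, and ratios are KO-labelled over WT. Barcodes were kept at 500 or more genes and 10% or less mitochondrial UMIs, which gave 10769 KO-labelled cells with a median of 9310 UMIs and 9472 WT cells with a median of 9884 UMIs. The library labelled KO went against its label in the targeted gene, as Runx1 stood at 196 CPM (UMIs of a gene per 1000000 UMIs of the library or cell set) in it and at 104 CPM in WT, but 3′ tags outside the deleted part of the gene check nothing about the deletion. The sex of the cells also differed. Male cells, taken as those with a UMI of a Y-linked gene and without Xist, numbered 973 (9.04%) in the KO-labelled library and 6690 (70.6%) in WT. Female cells, with more than 1 Xist UMI and no Y-linked UMI, numbered 8927 (82.9%) and 9 (0.0950%). Xist was at 1319 CPM in the KO-labelled library and 1.78 CPM in WT. Sex thus went with the genotype label for most cells, and over whole libraries they cannot be told apart. There were 39 barcodes found in both libraries. Markers of other cell types differed too. The 4 lymphoid-primed markers summed to 81.4 CPM in the KO-labelled library and 274 CPM in WT. The highest single gene among them gave 65.6 and 260 CPM. Flt3, also among the 4, went the other way in cells with a UMI, 1045 KO-labelled and 668 WT. The 5 neutrophil markers summed to 593 CPM in the KO-labelled library and 109 CPM in WT, the 5 haemoglobin-rich erythroblast markers to 910 and 243 CPM, and the 5 basophil and mast cell markers to 180 and 296 CPM. Of the last 5, 3 were under 1 CPM in the KO-labelled library and 0 in WT. A single gene gave 164 CPM of the KO-labelled sum. Prss34, a basophil protease gene, was at 0.0587 CPM in the KO-labelled library and 109 CPM in WT. The 5 endothelial markers summed to 40.5 CPM in the KO-labelled library and 41.4 CPM in WT, most of it Pecam1 (28.5 and 26.5 CPM), and their defining gene Cdh5 had 1 UMI in each. All 6 T and NK cell markers were under 1 CPM in both libraries. Apart from the basophil-gene and T and NK cells treated below, the part of these cells in the ratios was not tested.

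The gene positions below are those of GENCODE M21 on GRCm38, the mm10 build of the counts. Fli1 (ENSMUSG00000016087) lies at chr9:32422204-32542861 on the minus strand, and Ets1 (ENSMUSG00000032035) lies next to it at chr9:32636221-32757820 on the plus strand. Erg (ENSMUSG00000040732) lies at chr16:95359169-95586593 on the minus strand. Etv6 (ENSMUSG00000030199) lies at chr6:134035700-134270158 and Elf1 (ENSMUSG00000036461) at chr14:79481194-79582494, both on the plus strand. None shares exon sequence with a gene on its own strand. Exons of Gm17089 overlap those of Etv6, and exons of Wbp4 those of Elf1, on the opposite strand.

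RefSeq promoter sequences (GRCm38.p6) were matched for 3 of the 5 genes, Erg with 3 start sites, Etv6 with 1 and Elf1 with 2. The 250 bases before 4 of these starts are shown because the factors of these genes bind the GGAA core, and because the study deletes Runx1. They are printed 5′ to 3′ on the strand of the gene, and capitals mark each GGAA and its reverse complement TTCC.
Erg start 1, chr16:95586594-95586843, minus strand: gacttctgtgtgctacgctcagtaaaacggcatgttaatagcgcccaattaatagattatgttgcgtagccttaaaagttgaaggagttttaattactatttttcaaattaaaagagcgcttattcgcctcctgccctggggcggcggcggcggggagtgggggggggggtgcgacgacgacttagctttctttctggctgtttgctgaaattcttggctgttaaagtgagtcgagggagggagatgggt
Erg start 3, chr16:95459349-95459598, minus strand: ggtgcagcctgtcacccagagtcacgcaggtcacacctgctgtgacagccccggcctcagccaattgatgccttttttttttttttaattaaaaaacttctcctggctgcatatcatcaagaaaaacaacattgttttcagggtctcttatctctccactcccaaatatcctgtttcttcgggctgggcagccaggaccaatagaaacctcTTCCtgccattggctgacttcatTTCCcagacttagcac
Etv6 start 1, chr6:134035450-134035699, plus strand: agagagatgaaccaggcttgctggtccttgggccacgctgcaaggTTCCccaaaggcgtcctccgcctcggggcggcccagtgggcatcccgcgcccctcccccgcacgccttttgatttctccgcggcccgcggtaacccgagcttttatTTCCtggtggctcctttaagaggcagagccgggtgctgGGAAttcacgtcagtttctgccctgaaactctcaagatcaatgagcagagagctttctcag
Elf1 start 1, chr14:79480944-79481193, plus strand: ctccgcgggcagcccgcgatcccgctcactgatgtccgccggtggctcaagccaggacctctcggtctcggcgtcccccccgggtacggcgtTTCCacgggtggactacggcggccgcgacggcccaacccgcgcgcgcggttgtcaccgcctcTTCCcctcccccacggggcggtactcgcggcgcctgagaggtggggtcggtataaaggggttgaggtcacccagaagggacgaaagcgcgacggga

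The first Erg window held 0 cores, the third 2, the Etv6 window 3 and the first Elf1 window 2. Of the windows not printed, the second Erg window held 4 and the second Elf1 window 0. A core was found in 93.4% of all 32817 promoter windows of this length, with a median of 3 matches. The RUNX motif was searched on both strands in 4 forms. The first form was TGTGGT, and the same form with a final C was TGTGGC. With C in place of its inner T the motif reads TGCGGT, and with both of those changes together it reads TGCGGC. None of the 6 windows of the 3 genes held any form, and 37.9% of all windows held one. The GATA motif was searched as AGATAA and, in a second form that differs in its opening letter, as TGATAA. It had 1 match in the third Erg window, and 16.6% of all windows held one. A match here is a description of letters and not of a bound site. The 3′ tags do not show which start a transcript used.

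Over all kept cells, Erg and Elf1 were higher in the KO-labelled library, and Fli1, Etv6 and Ets1 were lower. Fli1 had 84.8 CPM in the KO-labelled library and 96.2 CPM in WT, from 10114 and 10839 UMIs. Its ratio was 0.881 (0.858 to 0.906). Erg had 23.0 CPM in the KO-labelled library and 18.4 CPM in WT, from 2738 and 2078 UMIs. Its ratio was 1.24 (1.18 to 1.32), opposite in direction to that of its close relative Fli1. Etv6 had 87.3 CPM in the KO-labelled library and 94.4 CPM in WT. Its ratio of 0.925 (0.900 to 0.951) corresponds to a log2 ratio of -0.11, near the median of -0.070 over the 5904 genes that reached 20 CPM in either library. Elf1 had 231 CPM in the KO-labelled library and 188 CPM in WT, at a ratio of 1.23 (1.21 to 1.25). Ets1, the least sampled of the 5, had 3.67 CPM in the KO-labelled library and 6.76 CPM in WT, from 438 and 762 UMIs. Its ratio of 0.543 (0.482 to 0.611) was the farthest from 1.

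Of the 5 genes, 4 reached 20 CPM in either library, Erg by its KO-labelled level alone, and Ets1 reached 5 CPM by its WT level alone. Past 1.5-fold either way stood 1 of the 5, Ets1, against 6.81% of the 9572 genes at 5 CPM or more, and 0 of the 4 at 20 CPM, against 4.29% of genes. Past 1.2-fold stood 3 of the 5, Erg and Elf1 higher and Ets1 lower, against 27.8% of genes at 5 CPM. A gene that passed a floor through 1 library only had to differ, so these counts describe size and support nothing about the 5 as a group.

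Shares of cells followed the same directions. With each cell thinned to 3000 UMIs, which left out 91 KO-labelled and 155 WT cells, an Erg UMI was found in 7.47% of KO-labelled and 6.07% of WT cells. For Fli1 these shares were 20.7% and 23.3%, for Etv6 23.8% and 24.9%, for Ets1 0.965% and 2.09%, and for Elf1 50.6% and 42.1%. Without thinning, Fli1 was found in 47.5% of KO-labelled and 52.5% of WT cells, Erg in 21.2% and 18.2%, Etv6 in 57.1% and 59.4%, Ets1 in 3.69% and 6.54%, and Elf1 in 85.0% and 79.3%. Free RNA can give such UMIs. In haemoglobin-rich cells, late red cell precursors with at least 100 haemoglobin UMIs, Erg was found in 3.26% of 92 KO-labelled cells (median 8279.5 UMIs) and 3.23% of 31 WT cells (median 9168 UMIs). Fli1 was found there in 7.61% of KO-labelled and 12.9% of WT cells, Etv6 in 9.78% and 9.68%, and Elf1 in 39.1% and 45.2%. The shares of these 4 genes over all cells were thus above those in haemoglobin-rich cells in both libraries.

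**Figure D1:**
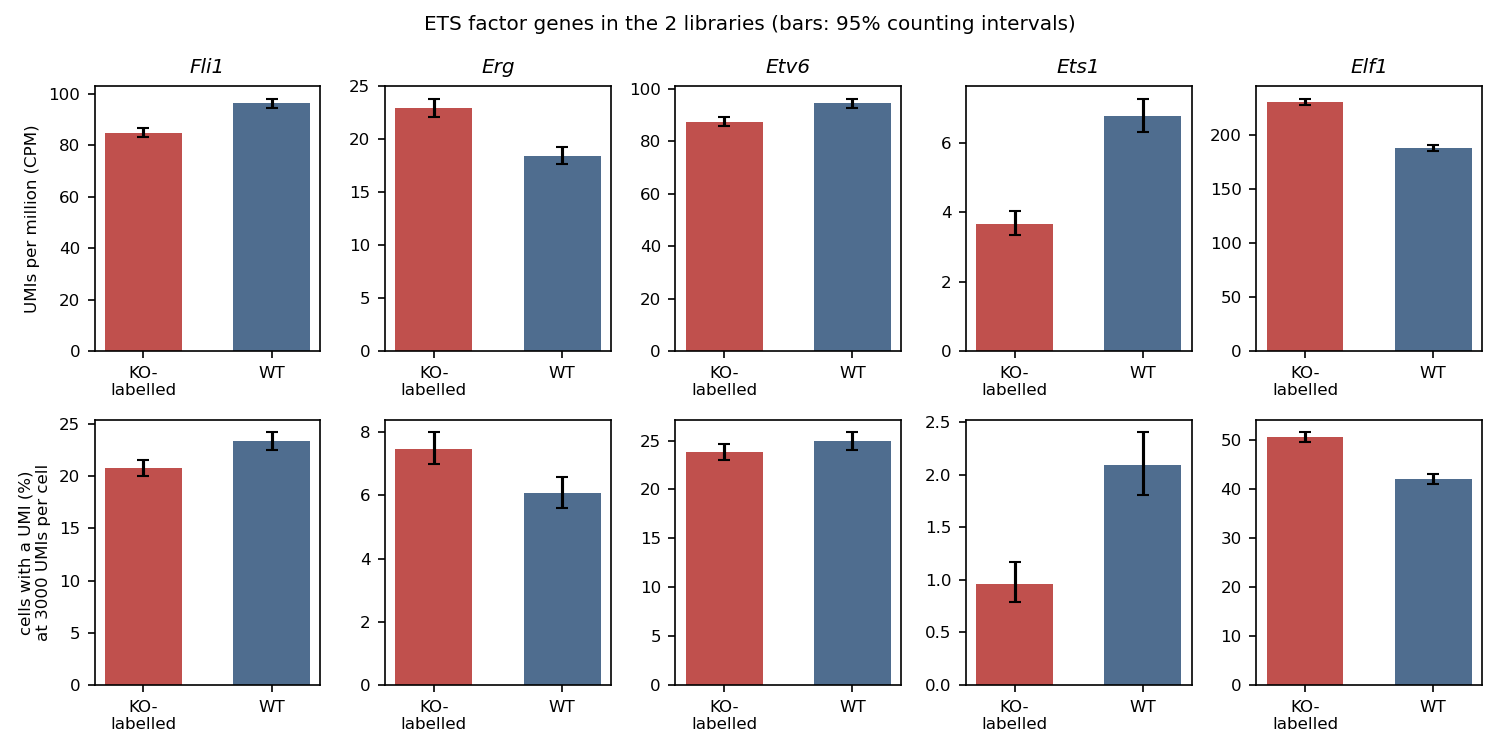
Level of each ETS factor gene (upper row, CPM) and share of cells with a UMI at 3000 UMIs per cell (lower row, percent) in the KO-labelled and WT libraries, with 95% counting intervals as error bars. Erg and Elf1 bars are taller in the KO-labelled library, and Fli1, Etv6 and Ets1 bars in WT, in both rows.

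The directions were the same without KO-labelled male cells, without shared barcodes and between male cells. Female cells were not compared between the libraries, as WT had 9 of them, and the part of sex was not tested. Without its male cells, the KO-labelled library gave ratios of 0.887 for Fli1, 1.24 for Erg, 0.928 for Etv6, 0.535 for Ets1 and 1.23 for Elf1. Without shared barcodes the ratios were 0.881, 1.25, 0.925, 0.544 and 1.23 in the same order. Between male cells of both libraries they were 0.820, 1.33, 0.902, 0.649 and 1.19. Within the KO-labelled library, male cells had 79.4 CPM of Fli1 and female cells 85.9 CPM, a ratio of 0.925 (0.860 to 0.992). For Erg the male and female levels were 23.2 and 23.2 CPM, and for Elf1 224 and 233 CPM, with intervals of the ratio that held 1.

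Marker genes divided the sort into overlapping sets of cells. Procr, a stem cell surface receptor gene, marked 788 KO-labelled cells (7.32%) and 938 WT cells (9.90%). At least 3 UMIs of Pf4, a platelet chemokine gene, marked 2042 KO-labelled cells (19.0%) and 3178 WT cells (33.6%). Mpo, a granule enzyme gene of granulocyte and monocyte progenitors, marked 2551 and 2018 cells, and Car1, a carbonic anhydrase gene of red cell progenitors, marked 2302 and 2379 cells. Each set was richer in at least 1 other marker of its name. Hlf was at 247 CPM in KO-labelled and 242 CPM in WT Procr-positive cells, against 74.3 and 79.9 CPM over all cells. Mecom, also a stem cell marker, differed between the libraries, at 77.2 and 150 CPM there against 21.8 and 59.0 CPM. In Pf4-positive cells Itga2b was at 470 and 309 CPM, against 222 and 176 CPM over all cells. Elane in Mpo-positive cells was at 1415 and 1248 CPM, against 418 and 347 CPM. Klf1 in Car1-positive cells was at 140 and 109 CPM, against 46.5 and 42.1 CPM. Pf4 itself stood at 485 CPM in the KO-labelled library and 1483 CPM in WT, so its gate need not take the same cells in both. Of KO-labelled Procr-positive cells 7.49% were also Pf4-positive, and of WT Procr-positive cells 18.9% were. For Mpo-positive cells these shares were 14.9% and 28.2%, and for Car1-positive cells 11.9% and 26.1%.

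Fli1 was highest in Pf4-positive cells in both libraries. It had 167 CPM in KO-labelled Pf4-positive cells and 60.6 CPM in the other KO-labelled cells, 2.75-fold higher (2.64 to 2.86). In WT the levels were 151 and 57.1 CPM, 2.65-fold higher (2.54 to 2.75). Of all genes at 20 CPM or more, 4.12% in the KO-labelled library and 3.07% in WT were at least 1.5-fold higher in Pf4-positive than in other cells. Procr-positive cells had 69.6 CPM of Fli1 in the KO-labelled library and 87.9 CPM in WT. Mpo-positive cells had 69.1 and 79.7 CPM, within the counting interval of the Procr-positive level in the KO-labelled library. Car1-positive cells had the lowest of the 4 levels, 48.5 CPM in the KO-labelled library and 69.2 CPM in WT.

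Fli1 followed the amount of Pf4 in a cell step by step. From cells with 0 Pf4 UMIs through 1 to 2, 3 to 9 and 10 to 29 up to at least 30, Fli1 in KO-labelled cells stood at 52.0, 76.4, 126, 198 and 217 CPM. WT cells had 52.9, 61.3, 104, 153 and 182 CPM over the same steps. The libraries were level in cells without Pf4, and at each later step Fli1 was higher in the KO-labelled library. Pf4 itself differed, at 485 CPM in the KO-labelled library and 1483 CPM in WT, so a step need not hold like cells in both. Cells with many Pf4 UMIs were also deeper, with medians of 14892 UMIs in KO-labelled and 16200 UMIs in WT cells of the last step, against 8224 and 7939 UMIs in the first. CPM is scaled to these totals.

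The lower Fli1 of the KO-labelled library as a whole was not seen on either side of the Pf4 gate. Fli1 was at a ratio of 1.10 (1.06 to 1.15) in Pf4-positive cells, and it was also higher in KO-labelled cells outside that gate, with 60.6 CPM in KO-labelled and 57.1 CPM in WT cells. Pf4-positive cells held 44.8% of the Fli1 UMIs of the KO-labelled library and 65.4% of those of WT. With the exclusive marker sets given equal weights the Fli1 ratio was 0.988, against 0.881 over all cells. With at least 3 UMIs of Itga2b, another megakaryocyte gene, as the gate in place of Pf4, the levels were 140 CPM in KO-labelled and 149 CPM in WT cells, a ratio of 0.935 (0.903 to 0.969) that was 1.0 under TMM scaling. The direction within megakaryocyte-marked cells thus depended on the marker. That gate took 3655 KO-labelled and 2472 WT cells. The 7 megakaryocyte markers summed to 3409 CPM in KO-labelled and 4659 CPM in WT Pf4-positive cells, and to 1102 and 2144 CPM over all cells. Their part in the Fli1 ratio beyond these gates was not tested.

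In the other sets Fli1 was lower in the KO-labelled library, at 0.791 (0.710 to 0.881) in Procr-positive, 0.867 (0.820 to 0.918) in Mpo-positive and 0.700 (0.657 to 0.746) in Car1-positive cells. In cells that belonged to exactly 1 set the ratio was 0.870 (0.740 to 1.02) for Procr, 1.08 (0.978 to 1.19) for Mpo and 0.922 (0.822 to 1.03) for Car1. All of these intervals hold 1, and the value in Mpo-positive cells turned without the cells that also carried another marker. Procr-positive cells with at least 3 Procr UMIs gave 0.468 (0.266 to 0.782), from few cells.

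**Figure D2:**
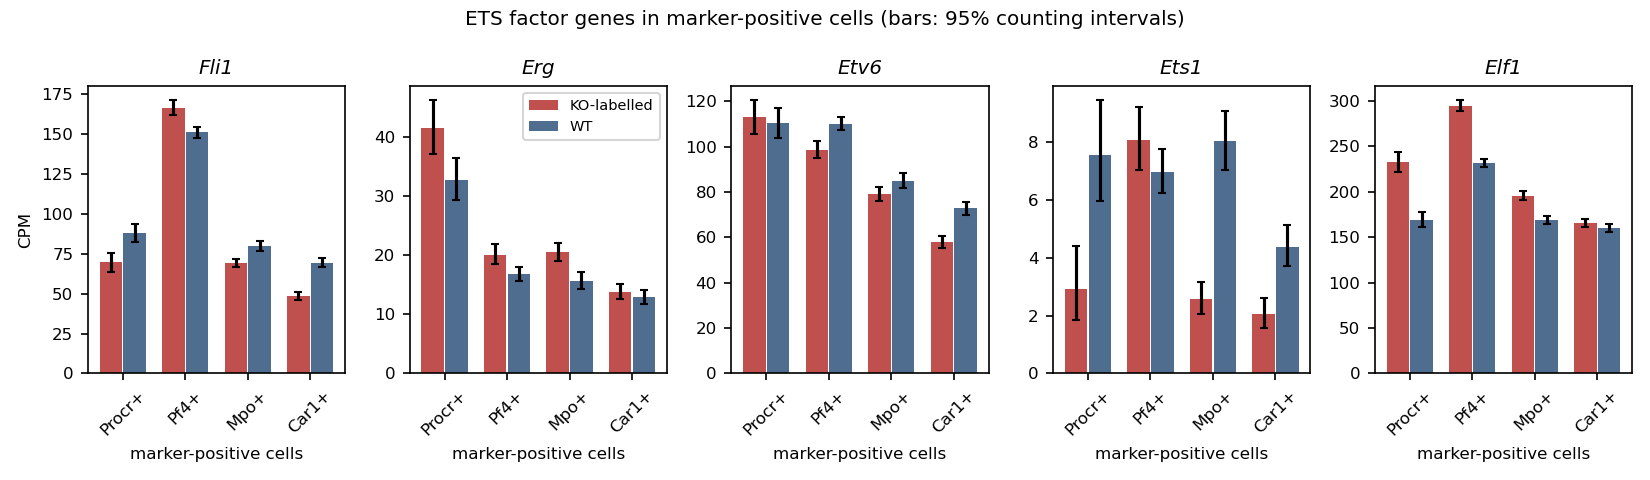
CPM of each ETS factor gene in Procr-, Pf4-, Mpo- and Car1-positive cells of the KO-labelled and WT libraries, with 95% counting intervals as error bars. Fli1 peaks in Pf4-positive cells (167 CPM KO-labelled and 151 CPM WT) and Erg in Procr-positive cells (41.5 CPM KO-labelled and 32.7 CPM WT).

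Erg was highest in Procr-positive cells in both libraries. It had 41.5 CPM in KO-labelled Procr-positive cells and 21.6 CPM in other KO-labelled cells, 1.92-fold higher (1.70 to 2.15). In WT the levels were 32.7 and 17.0 CPM, 1.92-fold higher (1.70 to 2.16). The shares of genes at least 1.5-fold higher in Procr-positive cells were 6.38% in the KO-labelled library and 6.19% in WT. Pf4-positive cells had 20.1 CPM in the KO-labelled library and 16.8 CPM in WT, and Mpo-positive cells 20.5 and 15.6 CPM. Those neighbours in the order did not differ beyond their counting intervals. Car1-positive cells were again lowest, with 13.7 CPM of Erg in the KO-labelled library and 12.9 CPM in WT.

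Unlike Fli1, Erg was lowest at the top of the Pf4 range. In cells with at least 30 Pf4 UMIs it stood at 11.4 CPM in the KO-labelled library and 12.4 CPM in WT, against 22.6 and 20.7 CPM in cells with none. It was also low in cells with at least 30 Mpo UMIs, at 10.6 CPM in the KO-labelled library and 5.82 CPM in WT. The KO-labelled library was higher for Erg in all 4 sets, with ratios of 1.27 (1.08 to 1.48) in Procr-positive, 1.19 (1.07 to 1.33) in Pf4-positive, 1.31 (1.17 to 1.48) in Mpo-positive and 1.07 (0.937 to 1.22) in Car1-positive cells. The last interval holds 1. Between male cells the intervals in Procr- and Mpo-positive cells held 1 as well, and in cells of exactly 1 set those in Procr- and Pf4-positive cells did. With at least 3 Procr UMIs the Procr-positive ratio turned to 0.768 (0.364 to 1.5).

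Etv6 varied less between the sets than Fli1 or Erg. Procr-positive cells had 113 CPM in the KO-labelled library and 110 CPM in WT, and Pf4-positive cells 98.6 and 110 CPM. In WT these 2 sets were level, and in the KO-labelled library the Procr-positive level was higher. Mpo-positive cells had 79.2 CPM in the KO-labelled library and 85.0 CPM in WT, and Car1-positive cells 58.1 and 72.9 CPM. The ratio was 1.03 (0.938 to 1.12) in Procr-positive, 0.895 (0.853 to 0.937) in Pf4-positive, 0.932 (0.883 to 0.983) in Mpo-positive and 0.797 (0.751 to 0.846) in Car1-positive cells. In Procr-positive cells it was 0.876 between male cells, and in Mpo-positive cells it was 1.09 where cells were in exactly 1 set, so neither direction held under all alternatives. For Car1, cells in exactly 1 set gave an Etv6 ratio of 0.934 (0.853 to 1.02), an interval that holds 1. The lower level in Pf4-positive cells kept its direction under each of 5 alternatives, with ratios between 0.878 and 0.906. Between male cells that ratio was 0.906 (0.785 to 1.04), an interval that holds 1.

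Elf1 was highest in Pf4-positive cells, at 295 CPM in the KO-labelled library and 232 CPM in WT. That was 1.39-fold over other KO-labelled cells and 1.47-fold over other WT cells. In Procr-positive cells it had 233 CPM in the KO-labelled library and 169 CPM in WT, in Mpo-positive cells 196 and 169 CPM, and in Car1-positive cells 165 and 160 CPM. The KO-labelled library was thus higher in each set, by a ratio of 1.37 (1.28 to 1.47) in Procr-positive, 1.27 (1.24 to 1.31) in Pf4-positive and 1.16 (1.12 to 1.2) in Mpo-positive cells. In Car1-positive cells the ratio of 1.03 (0.995 to 1.07) was not separable from 1, and the alternatives went both ways. It was 0.976 between male cells and 0.990 with a higher cut on Car1. In cells of exactly 1 set it was 1.15 (1.09 to 1.22), and after thinning 1.13 (1.05 to 1.22). Between male cells the ratio was 1.03 (0.942 to 1.12) in Mpo-positive and 1.2 (0.971 to 1.46) in Procr-positive cells, with intervals that hold 1, and 1.30 (1.2 to 1.41) in Pf4-positive cells. Thinned shares of Procr-positive cells with an Elf1 UMI were 50.1% in the KO-labelled library and 35.6% in WT.

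**Figure D3:**
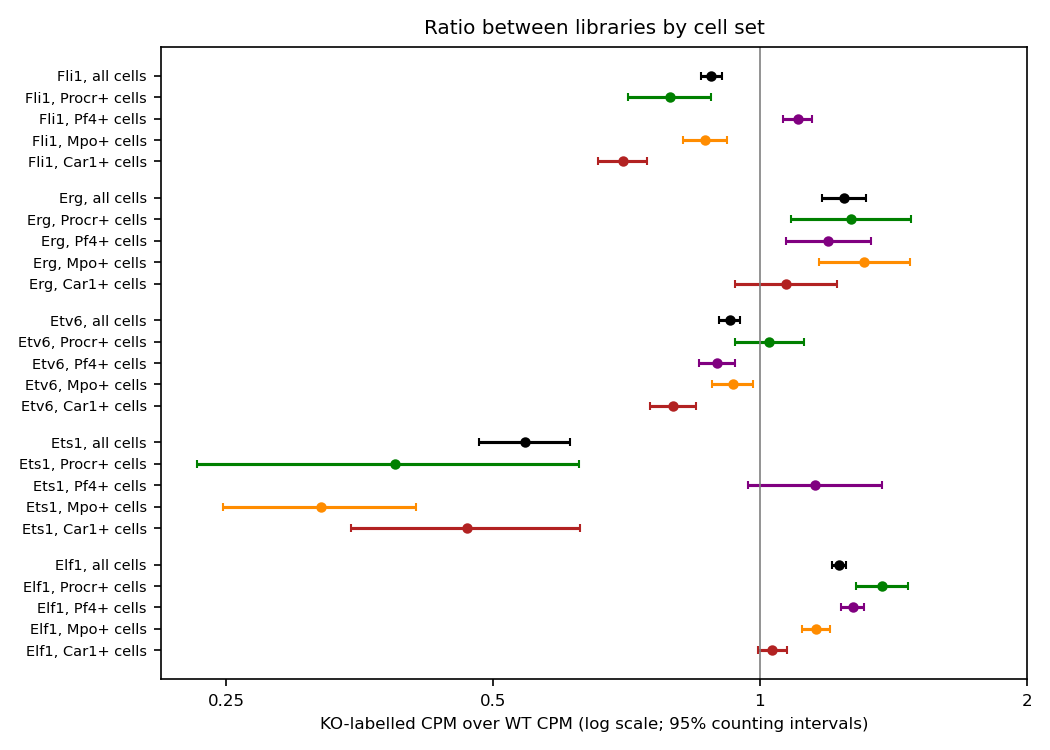
KO-labelled CPM over WT CPM (log axis) of each ETS factor gene over all cells and in the 4 marker-positive sets, with 95% counting intervals as error bars and a line at 1. Fli1 lies at 1.10 in Pf4-positive cells and below 1 elsewhere, and Elf1 lies above 1 throughout, nearest to it in Car1-positive cells (1.03).

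All 5 genes were lower in Car1-positive than in other cells in both libraries, by more in the KO-labelled library. For Fli1 the Car1-positive level was 0.492 of that in other KO-labelled cells and 0.637 of that in other WT cells, and for Etv6 0.591 and 0.698. For Erg these values were 0.520 and 0.611, for Elf1 0.645 and 0.794, and for Ets1 0.476 and 0.555. At least 1.5-fold lower in Car1-positive cells were 9.25% of all genes at 20 CPM or more in the KO-labelled library and 5.45% in WT. The difference between the libraries in these folds was not tested. Pf4-positive cells made up 11.9% of KO-labelled and 26.1% of WT Car1-positive cells. In cells of the Car1 set alone, Fli1 had 32.1 CPM in the KO-labelled library and 34.8 CPM in WT. Etv6 had 52.2 and 55.9 CPM there, Erg 12.4 and 10.9 CPM, Elf1 159 and 137 CPM, and Ets1 1.33 and 2.59 CPM. In cells with at least 30 Car1 UMIs, Fli1 was at 11 CPM in the KO-labelled library and 20.7 CPM in WT, against 98.6 and 109 CPM in cells with none. Etv6 was at 21.7 CPM in KO-labelled and 34.3 CPM in WT cells of that top step, Erg at 2.44 and 3.65 CPM, and Elf1 at 76.3 and 89.8 CPM. These cells were deep, with medians of 25617 and 22280 UMIs.

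**Figure D4:**
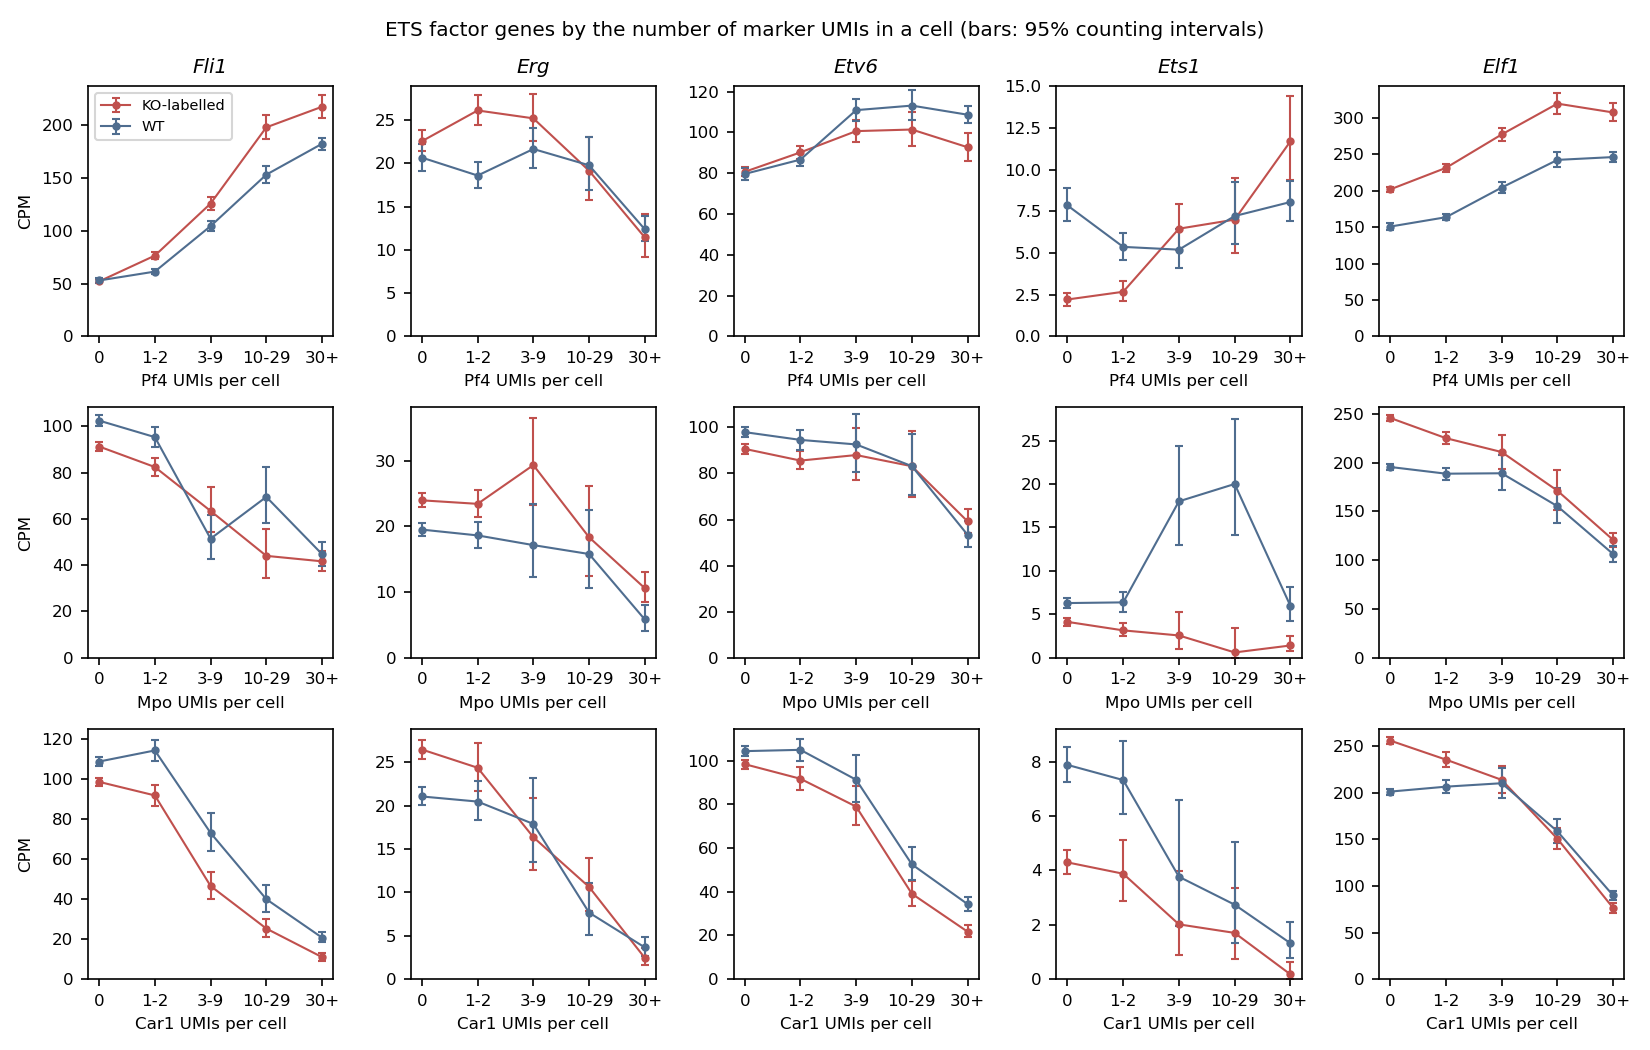
CPM of each ETS factor gene (columns) in cells grouped by their UMIs of Pf4, Mpo or Car1 (rows; 0, 1 to 2, 3 to 9, 10 to 29 and at least 30) in the KO-labelled and WT libraries, with 95% counting intervals as error bars. Fli1 climbs with Pf4 to 217 CPM KO-labelled and 182 CPM WT, and all genes are lowest in cells with at least 30 Car1 UMIs along the Car1 row.

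Ets1 was sparse, and in WT a part of it came from few cells. In 74 WT cells with at least 10 UMIs of the basophil protease genes Mcpt8 and Prss34, Ets1 stood at 177 CPM, and these cells held 113 of its 762 WT UMIs (14.8%). The KO-labelled library had 1 such cell, with 0 Ets1 UMIs. Cells with a UMI of a T or NK cell marker also had more Ets1 than other cells, 27.7 CPM in 55 KO-labelled cells and 61.3 CPM in 96 WT cells. Without both kinds of cells, a choice made after seeing the data, Ets1 was at 3.56 CPM in the KO-labelled library and 5.36 CPM in WT, a ratio of 0.663 (0.584 to 0.753).

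The remaining difference in Ets1 was not the same across the sets. Outside the Pf4 gate, and without basophil-gene and T and NK cells, Ets1 had 2.22 CPM in the KO-labelled library and 4.36 CPM in WT, a ratio of 0.508 (0.422 to 0.611). Within the gate it had 8.08 CPM in KO-labelled and 6.75 CPM in WT cells, a ratio of 1.2 (1.0 to 1.43). With all kept cells that ratio was 1.15 (0.969 to 1.37), an interval that holds 1. With all kept cells, Pf4-positive KO-labelled cells had 3.38-fold more Ets1 than the other KO-labelled cells (2.79 to 4.10), and in WT the fold was 1.05 (0.909 to 1.22). The other WT cells here include the basophil-gene and T and NK cells. Without them WT too was higher within the gate, at 6.75 CPM against 4.36 CPM outside it. Of all kept cells, those in the Itga2b gate gave an Ets1 ratio of 0.730 (0.621 to 0.857) and thinned Pf4-positive cells one of 0.820 (0.535 to 1.24), so no direction held in megakaryocyte-marked cells. In Mpo-positive cells Ets1 had 2.56 CPM in the KO-labelled library and 8.01 CPM in WT. The basophil and mast cell markers summed there to 214 CPM in KO-labelled and 873 CPM in WT cells, with 2 of the 5 under 1 CPM in the KO-labelled library and 0 in WT. Without basophil-gene and T and NK cells the Mpo-positive ratio was 0.525 (0.399 to 0.688), against 0.320 with them. Procr-positive cells had 23 Ets1 UMIs in the KO-labelled library and 76 in WT.

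Most genes had ratios below 1, with 3241 higher and 6331 lower in the KO-labelled library among the 9572 genes at 5 CPM in either library. Of 26 listed family members 15 reached 5 CPM in either library, 3 of them higher and 12 lower, or 5 and 10 under TMM scaling, where Elf2 and Elf4 also lay above 1. TMM is a scaling that trims the most divergent genes and raised all ratios. The median log2 ratio was -0.14 against -0.083 over all genes at that floor. The 3 higher ones were Spi1, the gene of the myeloid master factor PU.1, at 115 CPM in the KO-labelled library and 88.5 CPM in WT (ratio 1.30), and Erg and Elf1. Past 1.5-fold stood 2 of the 15, both lower, against 6.81% of genes in either direction. Both passed the floor by their WT level alone, as did Ets2, so their direction was set in part by the floor. They were Ets1 and Etv5, which had 4.58 CPM in the KO-labelled library and 7.66 CPM in WT (ratio 0.598). Ets2 was at 0.691 and Elk4, a partner of serum response factor, at 0.775. Fev, Elf3 and Elf5 had 0 UMIs in both libraries.

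**Figure D5:**
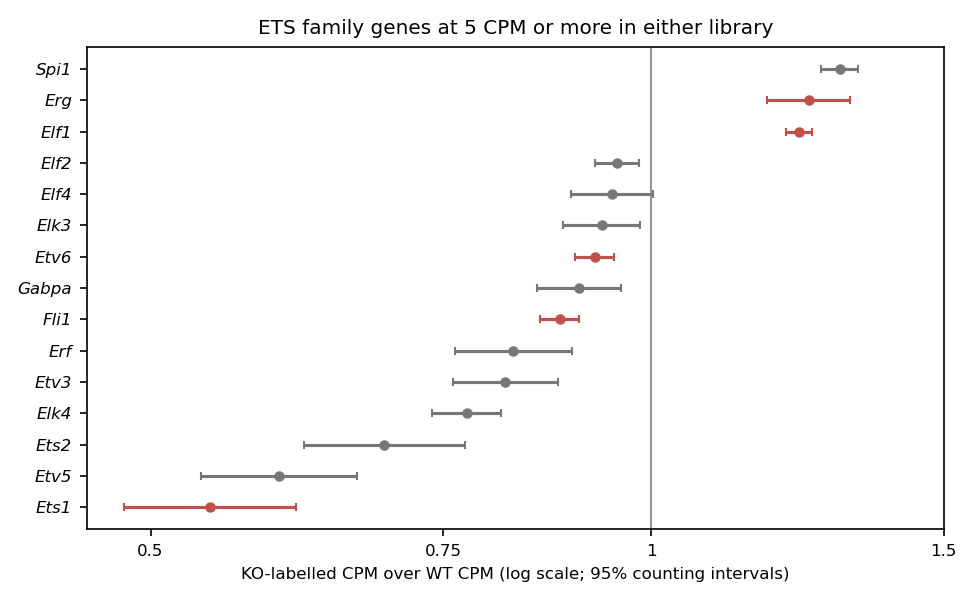
KO-labelled CPM over WT CPM (log axis) of the 15 ETS family genes that reached 5 CPM in either library, with 95% counting intervals as error bars and a line at 1. The 5 genes described here are in red and the others in grey. Spi1, Erg and Elf1 lie to the right of 1, and Etv5 and Ets1 farthest to the left.

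Among 9 genes for factors that work beside FLI1 and ERG in blood cells, 4 were higher and 5 lower in the KO-labelled library, with a median log2 ratio of -0.021, and under TMM scaling 7 were higher and 2 lower, with Tal1, Lmo2 and Gata2 among the higher. All genes at 5 CPM split into 3241 higher and 6331 lower, and under TMM scaling into 5078 and 4494. Lyl1, a basic helix-loop-helix factor gene, had 162 CPM in the KO-labelled library and 79.8 CPM in WT, a ratio of 2.03 (1.98 to 2.09), next to Runx1 at 1.89. Gata1 was at 1.19 and Meis1 at 1.01. Cbfb, the gene of the partner subunit of RUNX proteins, was at 0.788, Ldb1 at 0.919, and Tal1, Lmo2 and Gata2 lay between 0.968 and 0.985. Runx1 was higher in all 4 marker-positive sets, at 1.78 in Procr-positive, 2.1 in Pf4-positive, 1.88 in Mpo-positive and 1.57 in Car1-positive cells.

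Of 7 megakaryocyte genes known as ETS targets, 6 reached 5 CPM in either library, 2 higher and 4 lower in the KO-labelled library, a split close to that of all genes. Itga2b, the integrin chain of the fibrinogen receptor, had 222 CPM in the KO-labelled library and 176 CPM in WT (ratio 1.27), and Gp9, a subunit of the von Willebrand factor receptor, was at 1.41. Pf4 was at 0.327 and Vwf, which encodes von Willebrand factor, at 0.322. Gp1ba was at 0.881 and Nfe2 at 0.963. Gp6, below the floor, had 56 UMIs in the KO-labelled library and 17 in WT. Under TMM scaling Nfe2 also lay above 1, which made 3 higher and 3 lower.

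The patterns of the 5 genes across cell sets were compared by Pearson's r of log2(CPM + 1) over 12 points, the 6 exclusive sets (each marker alone, none, or several) of both libraries. The points share libraries, so these values are descriptions. Fli1 and Erg had an r of 0.25, the lowest among Fli1, Erg and Etv6. Etv6 lay between them, with 0.73 to Fli1 and 0.78 to Erg, and Elf1 had 0.75 to Fli1. Within the 6 sets of a library, Elf1 was nearer to Fli1 (0.89 KO-labelled and 0.92 WT) than Etv6 was (0.63 KO-labelled and 0.84 WT). Among 5667 genes the nearest to Fli1 were Ctdspl (0.975), Itgb3 (0.974) and Ptp4a3 (0.974), and the nearest to Erg were Gimap1 (0.989), Eya1 (0.988) and AW112010 (0.983). For Etv6 they were Inpp1, Phactr2 and Macf1 (0.972 to 0.978), for Elf1 Psd3, Commd7 and Fam98c (0.956 to 0.966), and for Ets1, with the fewest UMIs, Rab1a, Nampt and Myl6 (0.899 to 0.909).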

How the data were processed

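Single-cell 3′ RNA-seq was deposited as 1 count matrix per library. Its values are deposited whole-number counts of UMIs, for which the submitters' processing notes name Cell Ranger 2.1.1 and the mm10 build. The file headers name software version 3.1.0, and the labels name the 3′ v2 kit. Groups follow the genotype labels.

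Barcodes with at least 500 genes and at most 10% mitochondrial UMIs were kept (10769 KO-labelled, 9472 WT). Doublets were not removed. UMIs were summed per library or cell set and divided by the total (CPM). Intervals are exact (Poisson for CPM, conditional binomial for ratios, Clopper-Pearson for shares). No test was possible with 1 library per genotype. Male cells had a UMI of a Y-linked gene and no Xist UMI. Shares were thinned to 3000 UMIs per cell. The ratio step was checked on simulated counts. The 5 genes, the gene lists and the gates were chosen with earlier results of these data known. Named genes were the 5, list members at 5 CPM with at most 4 family ratios each way, all ETS targets of a list from which 1 gene was left out and is not reported here, and the 3 nearest genes by r. The equal-weight, scaling, filter, depth and gate alternatives are given in the closing section. Python 3.11.15, numpy 2.4.6, scipy 1.17.1, pandas 2.3.3 and edgeR 4.0.16 (TMM factors) in R 4.3.3 were used.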

Additional observations from a re-analysis of the deposited data

Results flagged for a closer look

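The KO-labelled over WT ratio of Fli1 pointed in opposite directions in different cell sets. It was 1.10 in Pf4-positive cells, against 0.791 in Procr-positive, 0.867 in Mpo-positive and 0.700 in Car1-positive cells. The difference between these ratios was not tested. The sets overlap, and Pf4-positive cells made up 14.9% of KO-labelled and 28.2% of WT Mpo-positive cells. They made up 11.9% of KO-labelled and 26.1% of WT Car1-positive cells. The ratio in Pf4-positive cells was 1.02 after thinning and 1.03 between male cells, with intervals that held 1. With the Itga2b gate it was 0.935. In cells of exactly 1 set the ratio was 1.07 (1.02 to 1.12) for Pf4, against 0.870 (0.740 to 1.02) for Procr, 1.08 (0.978 to 1.19) for Mpo and 0.922 (0.822 to 1.03) for Car1, and the last 3 intervals hold 1.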

How the results depend on the processing

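All 5 genes kept the direction of their ratio over the whole libraries in each of 11 alternatives. Some ratios came close to 1, as 0.990 for Etv6 under TMM scaling and 0.988 for Fli1 with equal weights. Those 2 have no intervals of their own, so their direction is not separable from 1 here. The alternatives without shared barcodes, without KO-labelled male cells and without basophil-gene and T and NK cells were chosen after seeing the data. TMM scaling, which raised the median log2 ratio of all genes by 0.098, gave ratios of 0.943 for Fli1, 1.33 for Erg, 0.990 for Etv6 and 1.31 for Elf1. A total without ribosomal and mitochondrial genes gave 0.910 for Fli1, 0.956 for Etv6 and 1.27 for Elf1. Without the 5% deepest cells Fli1 was at 0.943, Etv6 at 0.972 and Elf1 at 1.30. At least 1000 genes and at most 5% mitochondrial UMIs gave 1.45 for Erg and 0.961 for Etv6. Thinning gave 0.422 for Ets1 and 1.28 for Elf1. Between male cells Fli1 was at 0.820, Erg at 1.33, Ets1 at 0.649 and Elf1 at 1.19. Equal weights for the exclusive sets gave 0.988 for Fli1, 0.958 for Etv6 and 1.30 for Elf1. Without basophil-gene and T and NK cells Ets1 was at 0.663. The number of ETS family genes past 1.5-fold, 2 at 5 CPM, was 6 with no floor, where more genes entered, and 0 past 2-fold. The genes added without a floor had few UMIs, at most 16 in the KO-labelled library and 32 in WT. The share of all genes at these settings was not counted, so these numbers say nothing about the family. Apart from the composition of the alternatives themselves, the cause was not tested. With at least 3 Procr UMIs, Ets1 had 0 KO-labelled UMIs and gave no ratio. No paired analysis was possible because there was 1 library per genotype. Depth limits Ets1 most, with 438 KO-labelled and 762 WT UMIs.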

Other observations

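In Flt3-positive cells, multipotent progenitors with lymphoid potential, Erg was higher than in other cells in both libraries. It had 32.7 CPM in 1045 KO-labelled Flt3-positive cells, 1.5-fold over other KO-labelled cells (1.34 to 1.67), and 23.8 CPM in 668 WT Flt3-positive cells, 1.33-fold over other WT cells (1.15 to 1.53). Fli1 was lower in Flt3-positive than in other cells, 0.745-fold in the KO-labelled library and 0.727-fold in WT.

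Cells with at least 3 UMIs of the proliferation genes Mki67 and Top2a had less Erg than the rest, 19.4 against 27.8 CPM in the KO-labelled library and 16 against 23.9 CPM in WT. Etv6 had 75.8 against 103 CPM in the KO-labelled library and 90.3 against 103 CPM in WT. Elf1 was 0.805-fold the level of other cells in proliferating KO-labelled cells and 0.984-fold in proliferating WT cells. That difference between the libraries was not tested.

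At 3000 UMIs per cell, the share of cells with Erg was close in cells with and without Fli1. An Erg UMI was found in 7.04% of KO-labelled cells with Fli1 and 7.59% of those without, and in 5.93% of WT cells with Fli1 and 6.12% of those without. Elf1 was found in 55.7% of KO-labelled cells with Fli1 and 49.3% of those without, and in 47.7% and 40.4% of such WT cells.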
